A study of Glycine max with 18 samples.

Results

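The 72 genes described here are those soybean leaf transcripts that were very abundant and whose time-point means stayed within a set limit. They were chosen by their measured levels. Annotated genes were ranked by their mean TPM (transcripts per 1000000, a level corrected for transcript length and library depth) over 18 libraries, and the 100 highest were taken. A gene was kept when the means of log2(TPM + 1) at the 6 time points spanned less than 2 (the range). This removed 25 of the 100 genes, and another 3, Glyma.13G046200, Glyma.19G046600 and Glyma.19G046800, were left out by name, which left 72 of the 55589 annotated genes. The members were thus selected on mean TPM and on the range of the time-point means, and both are given as a description with no test.

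The libraries came from the first trifoliate leaf of wild-type soybean (Glycine max) of the reference cultivar Williams 82 (Ws82), with no mutant or treatment other than light. Plants grew in light and dark cycles and were then kept in constant light for 1 day before and throughout sampling, so that any daily rhythm was free-running. Leaves were sampled every 4 h at 6 time points, which the paper calls ZT24, ZT28, ZT32, ZT36, ZT40 and ZT44 (Zeitgeber time, in hours) and the labels ZT0 to ZT20. Each time point had 3 biological replicates, L, M and R. The labels and the paper give short days before constant light. The design text of the series gives equal light and dark, and this difference could not be settled.

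In a green leaf, transcripts of photosynthesis genes are usually among the most abundant. Total RNA depleted of ribosomal RNA, as used here, also keeps RNA without a poly(A) tail, which includes most organellar RNA and small structural RNA. Plant nuclear chromosomes carry stretches copied from plastid and mitochondrial DNA, and reads from an organelle can align to such copies. Whether this applies to any of the 72 genes was not tested, because neither the genome sequence nor gene products for these identifiers were at hand. For the same reason members are named by identifier only, no sequence is shown, and the leaf label could not be set against leaf marker genes. All positions are on the 20 chromosomes of Gmax_Wm82_a2_v1, and only the outer bounds and the strand of each gene are known.

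The libraries held 3.11 to 7.24 Gb of aligned sequence, with the 3 ZT44 libraries the shallowest. The summed TPM of the annotated genes was 51.3% to 78.6% of that of all assembled loci, and the lowest value belonged to ZT32 R. ZT32 R stood apart, with 227701 assembled loci that carried no strand, so results that rest on it are also given without it. ZT28 M stood apart in many of the members, with values given beside those results. Members were far from any limit of detection: the lowest TPM of any member in any library was 100.3, and the lowest mean coverage was 604 reads per base.

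Together the 72 genes held 66.9% ± 3.78 of the gene TPM (SD, n = 18 libraries). At ZT24 they held 64.4%, 59.4% and 63.6% in L, M and R, and at ZT28 they held 71.1%, 61.2% and 65.5%. At ZT32 the shares were 71.2%, 67.2% and 75.9%, and at ZT36 they were 68.7%, 66.3% and 68.2%. At ZT40 they were 69.0%, 68.3% and 67.9%, and at ZT44 they were 65.2%, 66.0% and 65.4%. All 3 ZT24 libraries lay below every library of ZT32, ZT36, ZT40 and ZT44, while ZT28 overlapped with each of the other time points. The mean was lowest at ZT24 (62.5% ± 2.68) and highest at ZT32 (71.4% ± 4.39, SD, n = 3 each), and without ZT32 R the ZT32 mean was 69.2%, from 2 libraries. This order holds for the gene TPM. The assembled loci are separate entries, so the members are no part of their TPM. Against the TPM of all assembled loci, that of the members came to a mean of 45.2% at ZT32. It was highest at ZT40 (50.4%). In ZT32 R, the library with the lowest gene TPM, it came to 39.0%. A higher share of the gene TPM for the members is a lower share for all other genes of that library. The gene TPM itself had no fixed total, so both could be high or low together. In ZT40 M the members summed to 536606 TPM and the other genes to 249444 TPM, and in ZT32 R to 389762 and 123583 TPM. The other 28 of the 100 highest genes, of which 25 were left out for a range of 2 or more, had a mean share of 7.62% ± 0.41 at ZT24 and 2.50% ± 0.24 at ZT36 (SD, n = 3 each), with 7.33%, 5.54%, 2.99% and 5.08% in the order ZT28, ZT32, ZT40 and ZT44.

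**Figure D1:**
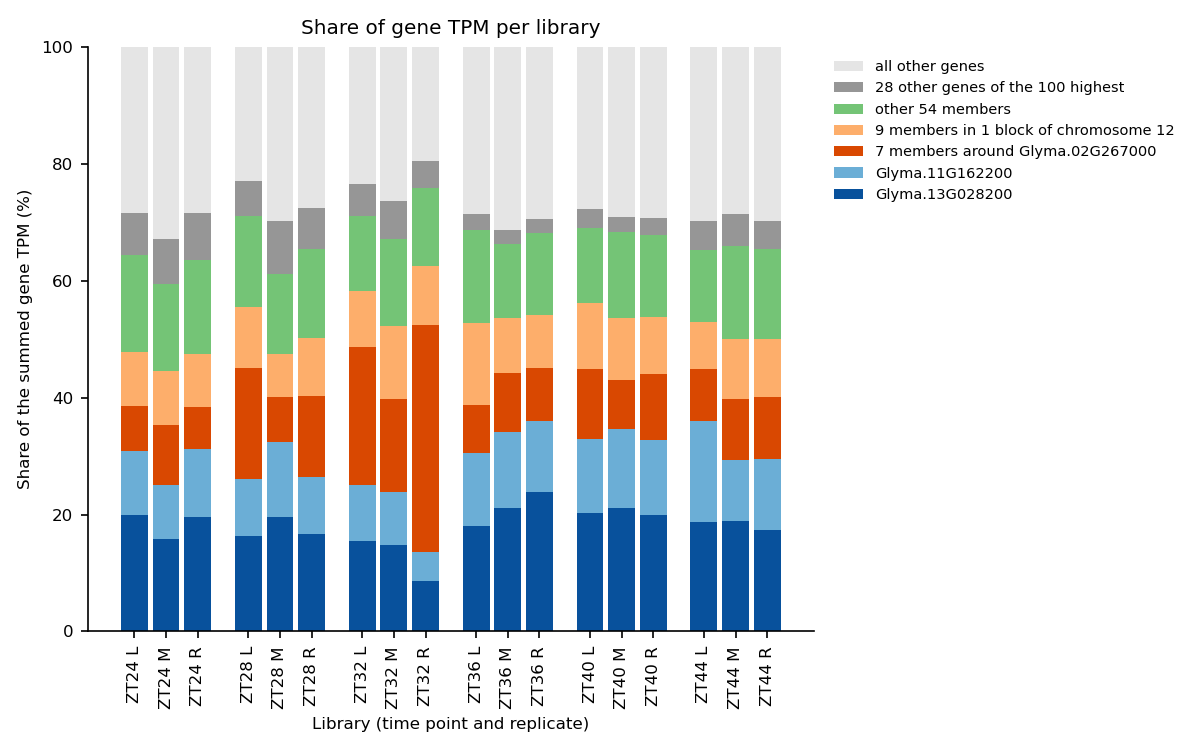
Share of the summed gene TPM (%, y axis) in each of the 18 libraries (x axis), split from bottom to top into the 2 highest members, the 7 members around Glyma.02G267000, the 9 members of the chromosome 12 block, the other 54 members, the 28 other genes of the 100 highest, and all other genes. The members fill 59.4% to 75.9% of each bar, and in ZT32 R the 7 members around Glyma.02G267000 alone fill 38.7%.

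Within the members the TPM was concentrated in a few genes. The first gene held 27.4% of the mean TPM of the 72, the first 2 held 44.5%, the first 5 held 64.9%, the first 10 held 79.0% and the first 20 held 89.8%. By mean TPM, 9 members lay above 10000, 26 lay between 1000 and 10000, and 37 lay below 1000, with a median of 965 and a lowest value of 450.0, against a median of 0.396 TPM over all annotated genes. Between 17 and 27 members made up 90% of the member TPM of a library.

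Glyma.13G028200 (chromosome 13, 7358237 to 7359106, plus strand, 870 bp) was the highest gene of 17 of the 18 libraries. It had 144492, 108913 and 123460 TPM at ZT24 in L, M and R, 112027, 138579 and 116319 TPM at ZT28, and 106818, 104558 and 44535 TPM at ZT32. It had 101733, 146297 and 155827 TPM at ZT36, 147424, 165756 and 139479 TPM at ZT40, and 118770, 120258 and 117810 TPM at ZT44. ZT32 R was by far its lowest library. Even ZT32 L and M lay below every library of ZT24, ZT28, ZT40 and ZT44, and the 3 ZT40 libraries lay above all those of ZT28, ZT32 and ZT44, while ZT36 overlapped with each other time point. Its range was 0.93 on the log2 scale and 0.51 without ZT32 R. In ZT32 R it ranked 3rd, behind Glyma.02G267000 and, by a narrow margin, Glyma.14G038100.

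Glyma.11G162200 (chromosome 11, 15042033 to 15042903, minus strand, 871 bp) was second by mean, at 76906 TPM. Its lowest value was 25670 TPM in ZT32 R, its median was 76073 TPM, and its highest was 109028 TPM in ZT44 L. These 2 genes have nearly the same span, and the level of Glyma.13G028200 over that of Glyma.11G162200 stayed between 1.09 (ZT44 L) and 1.93 (ZT36 R) in all 18 libraries. Together they held 29.5% ± 5.49 of the gene TPM (SD, n = 18), from 13.7% in ZT32 R to 36.1% in ZT36 R.

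Glyma.02G267000 (chromosome 2, 45149237 to 45149395, minus strand, 159 bp) came next by mean, at 37599 TPM, and behaved differently. It had 23469, 30386 and 19235 TPM at ZT24 in L, M and R, 54870, 26447 and 40302 TPM at ZT28, and 77093, 50964 and 95090 TPM at ZT32. It had 18972, 31431 and 25419 TPM at ZT36, 35277, 29183 and 32083 TPM at ZT40, and 23599, 30302 and 32655 TPM at ZT44. All 3 ZT32 libraries were above those of ZT24, ZT36, ZT40 and ZT44, and ZT28 L reached into them while ZT28 M did not. Its range was 1.59, and 1.39 without ZT32 R.

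A further 6 members had a Pearson r above 0.8 with Glyma.02G267000 over the 18 libraries, a limit set after their values were seen. They are Glyma.14G050500 (r 0.97), Glyma.14G038100 (0.96), Glyma.15G223400 (0.95), the overlapping pair Glyma.06G028100 and Glyma.06G028200 (0.94 each) and Glyma.10G067600 (0.87). Spearman's rho with Glyma.02G267000 ran between 0.83 and 0.98. Without ZT32 R the 6 values of r were 0.81 to 0.96, without the 2 libraries farthest from the median, ZT32 L and ZT32 R, they were 0.73 to 0.94, and for deviations from the time-point means they were 0.89 to 0.94. These values come from the libraries by which the 6 genes were picked, so they describe the set and give no support for it. Shared deviations from the time-point means were also not limited to the set. Glyma.01G143000, below the limit with an r of 0.78, had 0.93 for deviations. Libraries share their time point and their depth, so r is a description of these 18 libraries. The 7 genes lie on 5 chromosomes and span 159 to 5318 bp. Glyma.06G028100 and Glyma.06G028200 overlap on 1 strand and were overlapped by assembled loci of the same median length (447 bp) and level (10516 TPM), so they are not independent of each other.

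Among these 7, Glyma.14G050500 (chromosome 14, 3959361 to 3960647, plus strand) had the widest range, 1.88. It had 6155, 8086 and 4957 TPM at ZT24 in L, M and R, 18665, 6601 and 14446 TPM at ZT28, and 23470, 17176 and 30466 TPM at ZT32. At ZT36, ZT40 and ZT44 its 9 libraries lay between 6953 and 11598 TPM. As for Glyma.02G267000, ZT28 L and R lay above all ZT24 libraries and ZT28 M lay among them. Glyma.14G038100 (chromosome 14, 2853746 to 2854087, plus strand) peaked at 44879 TPM and Glyma.10G067600 (chromosome 10, 6652099 to 6652841, minus strand) at 18144 TPM, both in ZT32 R. ZT32 R was the highest library of 5 of the 7 genes, and ZT32 L that of Glyma.06G028100 and Glyma.06G028200.

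The 7 genes together held 7.60%, 10.4% and 7.13% of the gene TPM at ZT24 in L, M and R, 18.9%, 7.68% and 13.8% at ZT28, and 23.6%, 15.9% and 38.7% at ZT32. Means were 9.07% ± 0.86 at ZT36, 10.5% ± 1.95 at ZT40 and 10.05% ± 0.94 at ZT44 (SD, n = 3 each). The ZT32 mean was 26.1% ± 11.6 with ZT32 R and 19.7% from L and M. The members outside this set held 45.3% ± 7.30 at ZT32 (SD, n = 3), and their means at the other time points were 52.5% (ZT28) to 58.7% (ZT36). In gene TPM, the high share of all 72 genes at ZT32 lay in these 7 genes. They had been picked for their likeness to Glyma.02G267000, itself highest at ZT32, so this follows in part from the choice. The remaining members held their lowest mean share at ZT32. Without ZT32 R the remaining members held 49.4% at ZT32, which was still the lowest mean.

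**Figure D2:**
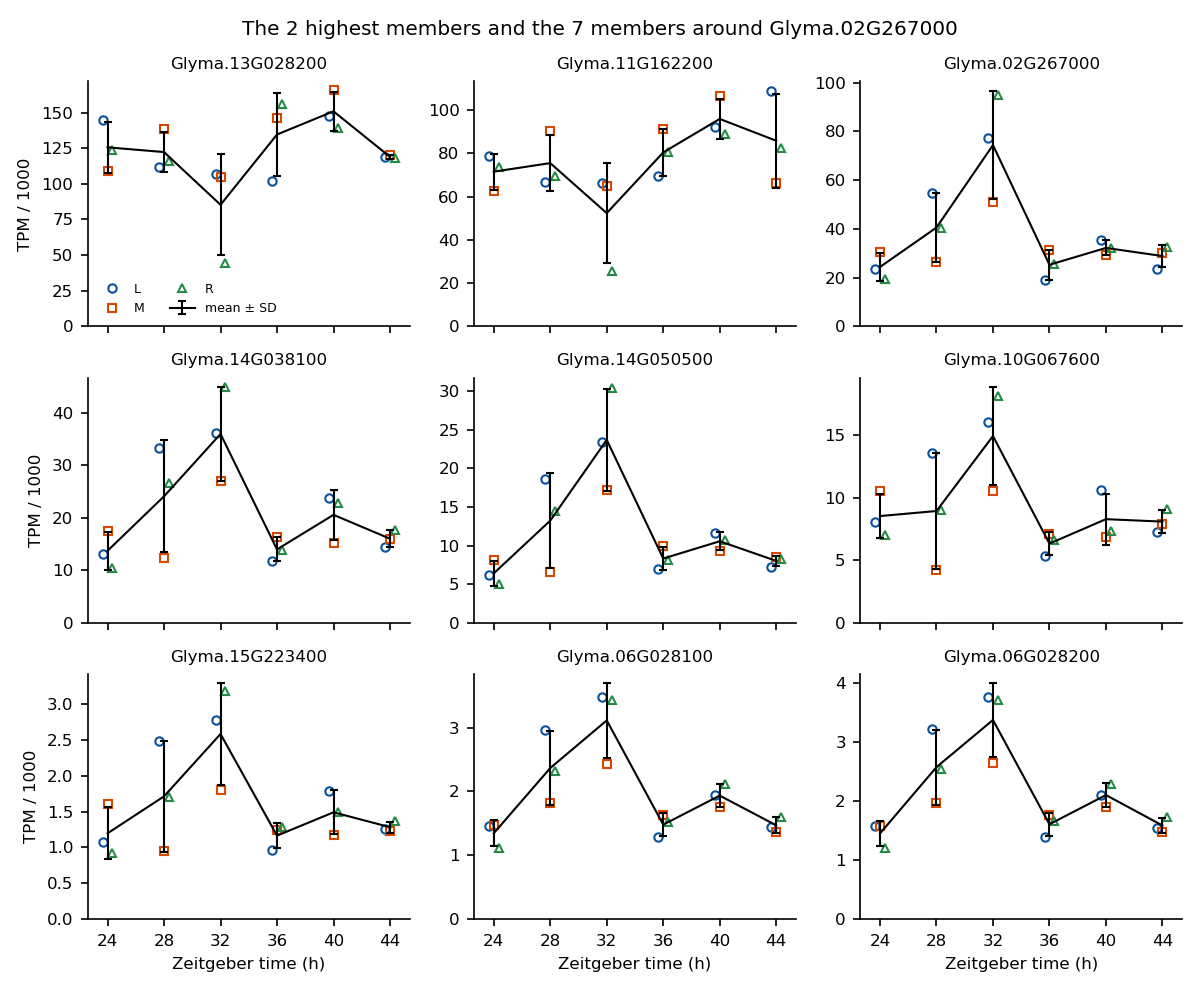
TPM divided by 1000 (y axis, from 0) against Zeitgeber time in hours (x axis) for the 2 highest members and the 7 members around Glyma.02G267000, with each library as a symbol by replicate letter and the line giving the mean ± SD of 3 replicates. In the first 2 panels ZT32 R lies lowest, at 44535 and 25670 TPM, and in the other 7 the ZT32 mean is the highest.

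Of the remaining members of the 20 highest, Glyma.12G232700 (chromosome 12, 39191743 to 39192262, plus strand) had a mean of 33490 TPM and a range of 0.52, from 19384 TPM in ZT32 R to 43441 TPM in ZT40 M. Glyma.01G058600 (chromosome 1, 7754927 to 7755389, minus strand) had the smallest ratio of highest to lowest library among the 72 genes, 2.09, with 4216 TPM in ZT32 R, a median of 7042 TPM and 8826 TPM in ZT44 L. Glyma.13G088500 had a mean of 16862 TPM and a range of 0.88, and Glyma.05G073600 had 15476 TPM and a range of 1.00. Glyma.06G229000, Glyma.14G158500, Glyma.15G114600 and Glyma.19G109600 had means of 6589, 5234, 4040 and 2332 TPM and ranges of 0.89, 0.71, 0.85 and 0.75. Some were less steady. Glyma.06G229000 had a ratio of highest to lowest library of 5.05 and a residual SD between replicates of 0.57 on the log2 scale, Glyma.12G232400 had a residual SD of 0.64, and Glyma.12G232800 had a range of 1.12 and a ratio of 5.58. Glyma.11G114700 had a mean of 2976 TPM and a range of 1.62, from 1097 TPM in ZT32 R to 6388 TPM in ZT44 L. For Glyma.06G229000, Glyma.13G088500, Glyma.15G114600 and Glyma.19G109600 the lowest library was ZT44 L, the shallowest of all at 3.11 Gb, and the part of depth in this was not tested.

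Position was not used to choose the members. On chromosome 12, 9 members lay within 10662 bp, from 39184081 to 39194742, in an uninterrupted run of 11 annotated genes, Glyma.12G231900 to Glyma.12G232900. The other 2 genes of the run, Glyma.12G232500 and Glyma.12G232600, were also among the 100 highest but had ranges of 2.78 and 3.12. Of the 9 members, 5 are on the plus strand and 4 on the minus strand. The genes that flank the run were at 3.90 TPM on the near side (Glyma.12G231800, 1322 bp away) and at 4.67 TPM on the far side (Glyma.12G233000, 5666 bp away), so the high level began and ended within a few kilobases.

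Along the run the mean levels were 6516 TPM for Glyma.12G231900, 5117 TPM for Glyma.12G232000, 754 TPM for Glyma.12G232100, 940 TPM for Glyma.12G232200, 2204 TPM for Glyma.12G232300, 6568 TPM for Glyma.12G232400, 33490 TPM for Glyma.12G232700, 10218 TPM for Glyma.12G232800 and 1393 TPM for Glyma.12G232900. Levels of the members thus ran from 754 to 33490 TPM within this short stretch, in which the genes are packed closely. Glyma.12G231900 and Glyma.12G232000 are 34 bp apart, Glyma.12G232000 and Glyma.12G232100 only 2 bp, and Glyma.12G232400 lies wholly inside Glyma.12G232300 on the same strand over its 135 bp. Glyma.12G232600, 96 bp long, likewise lies inside Glyma.12G232500. How the quantification divided reads between nested genes is not known, so the levels of each such pair are uncertain.

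The levels of the 9 members of the run did not move as 1, although some assembled loci ran across more than 1 of them, as given below. Over the 18 libraries the 16 pairs on the same strand had a median r of 0.35 (-0.32 to 0.96) and the 20 pairs on opposite strands a median of 0.12 (-0.18 to 0.86), and without ZT32 R the medians were 0.38 and 0.22. Glyma.12G232800 was at 2685 TPM in ZT44 R, against 7058 and 10272 TPM in ZT44 L and M. Together the members of the run held 10.01% ± 1.52 of the gene TPM (SD, n = 18), from 7.47% in ZT28 M to 14.1% in ZT36 L. By mean TPM, Glyma.12G232700 was the largest part of this share.

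**Figure D3:**
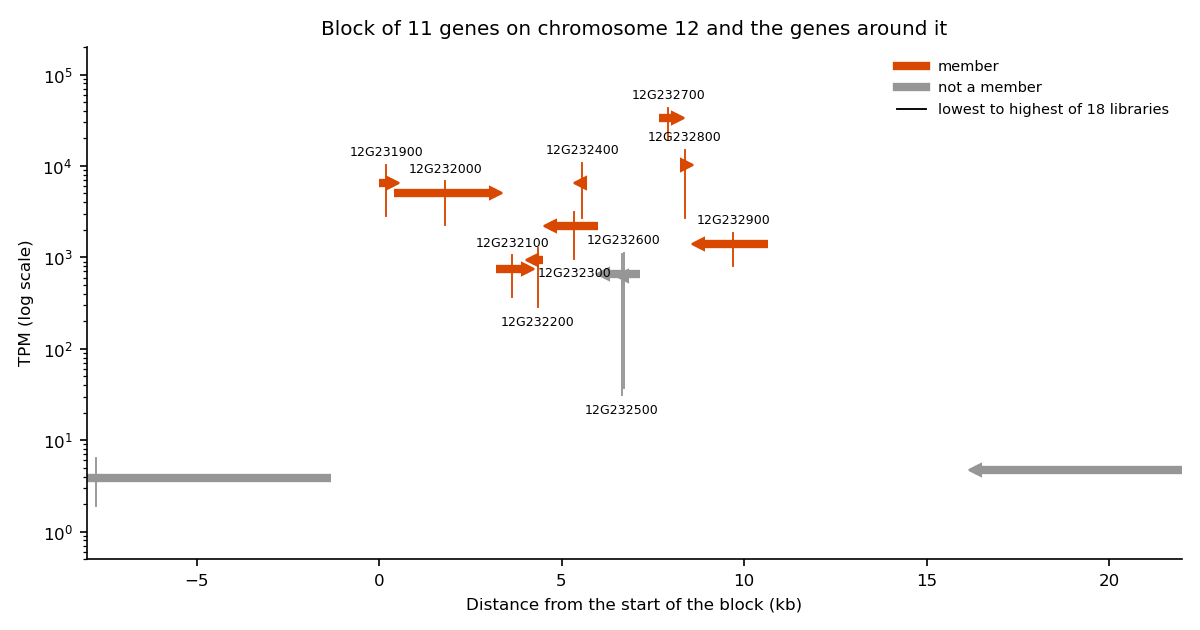
TPM (y axis, log scale) of the 11 genes of the chromosome 12 run and of the genes around it against the distance from the start of the run in kb (x axis). Each horizontal bar is a gene at its mean over 18 libraries with an arrowhead for its strand, and the vertical line joins its lowest and highest library. The 9 members lie between 754 and 33490 TPM, and the flanking genes at 3.90 and 4.67 TPM.

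Apart from this run, members were scattered. Members lay on all 20 chromosomes, and chromosome 12 had 10 of them (13.9%, against 4.36% of all annotated genes), 9 of which were the run. The only other members within 20 kb of each other were Glyma.06G028100 (chromosome 6, 2193292 to 2197224) and Glyma.06G028200 (2196938 to 2202255), which overlap by 287 bp on the same strand and had means of 1951 and 2112 TPM. By level, chromosome 13 carried 31.2% of the mean member TPM, chromosome 11 carried 17.8% and chromosome 12 carried 15.1%. Members were split evenly by strand, with 48.6% on the plus strand, against 51.6% of all genes.

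Apart from members that lay next to each other, most genes next to a member were low. Of the 144 places next to a member, 16 were held by another member, and the 128 neighbours that were not members had a median of 0.530 TPM, against 0.396 TPM over all annotated genes. Under 1 TPM were 60.9% of these neighbours and 63.6% of all genes. The median level of a member over that of such a neighbour was 2218, at a median gap of 4834 bp. Glyma.13G028200 lay between Glyma.13G028100 (0.528 TPM, 19031 bp away) and Glyma.13G028300 (0.156 TPM, 72690 bp away), and the closest neighbour of Glyma.11G162200, Glyma.11G162100, was at 0.0904 TPM, 3414 bp away. Above 100 TPM were 5 of the 128 neighbours that were not members. Such levels were rare over all 55589 annotated genes, where a gene at 37.6 TPM (Glyma.14G038200) already ranked 780. High neighbours were therefore not fewer than over all genes, also without the places held by members. The 5 were both further genes of the chromosome 12 run, Glyma.10G042100 (337 TPM), Glyma.15G248500 (199 TPM) and Glyma.07G028100 (165 TPM), named because their count was small.

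A pair of members, Glyma.12G096200 and Glyma.15G188400, lies under a gene on the other strand, over 318 and 373 bp. The members averaged 784 and 679 TPM, while the genes on the other strand, Glyma.12G096100 and Glyma.15G188300, averaged 0.533 and 0.464 TPM. The library kit keeps strand, but whether the quantification used it is not stated in the sources used here.

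Members were short. Their median span was 729.5 bp, against 2922 bp over all annotated genes, 3904 bp over the 24620 genes with a mean of at least 1 TPM at any time point (called tested genes) and 1534 bp over the other 28 of the 100 highest. Under 500 bp were 26 of 72 members (36.1%), against 5.76% of all genes and 2.00% of the tested genes. The 10 highest members had a median of 473 bp and the 52 members below the 20 highest had one of 887 bp. The shortest were Glyma.12G232800 (123 bp), Glyma.12G232400 (135 bp) and Glyma.02G267000 (159 bp), and the longest was Glyma.05G007100 (6269 bp). A span runs over introns where there are any, and assembled loci can run past it, so it is not the transcript length. TPM divides by transcript length, and how far that step bears on the levels of genes as short as a read pair was not tested.

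**Figure D4:**
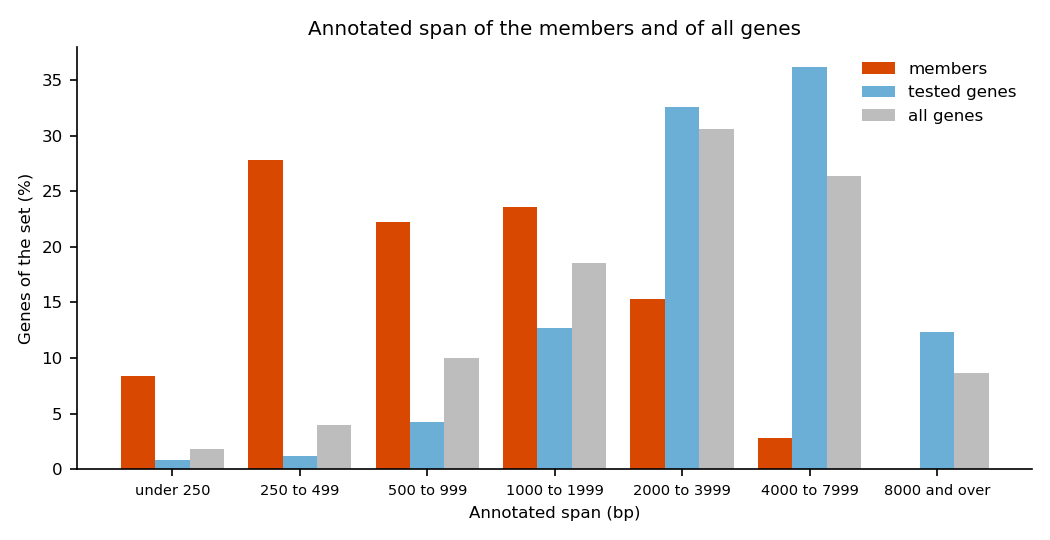
Percent of genes (y axis) by annotated span in bp (x axis) for the 72 members, the 24620 tested genes and all 55589 annotated genes. In the bin of 250 to 499 bp lie 27.8% of the members, 1.16% of the tested genes and 3.97% of all genes, and from 8000 bp on there are 0 members.

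The deposited tables also hold assembled loci. Whether the annotation guided the assembly is not stated in the sources used here, and the exact bounds given next mean that these loci cannot be taken as independent of it. Of the 72 members, 65 had an assembled locus on their own strand in all 18 libraries and 7 in some of them. An overlap of 1 bp was enough for this. Where the locus had to cover most of the span, 56 members had one in all 18 libraries. For 42 members the locus had exactly the annotated bounds in every library, and for 24 it had them in none. In 40 members the gene TPM stayed within 1% of the locus TPM. Glyma.13G028200 belonged to the 24, since its loci on the plus strand began 23 to 46 bp before the annotated start and ended 48 to 533 bp after the annotated end. In 4 libraries (ZT28 L, ZT28 M, ZT36 L and ZT40 R) a locus of 127649 to 192192 TPM covered it on the opposite strand, and in ZT32 R no locus covered it. Glyma.12G232700, at 33490 TPM, had no assembled locus over it in 14 of the 18 libraries, although the genes beside it did.

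Over time the members spanned a range of 0.29 to 1.98 with a median of 1.07, against a median of 1.04 over the tested genes. A range under 2 was also that of 88.3% of the tested genes. The rule capped the range of the members, and log2(TPM + 1) understates the change of low genes. The tested genes had a median level of 2.41 TPM, so nothing is read from these ranges side by side. The moderated F-test of limma over the 6 time points gave an adjusted p under 0.05 (Benjamini-Hochberg over the tested genes) for 43 of the 72 members (59.7%), where the share over all tested genes was 76.3%. The choice of members used the same time-point means, so nothing is read from this count. In 12 members (16.7%) L, M and R had the same highest time point, where the share over all tested genes was 26.8%. These 12, named after their values were seen, were the 7 genes around Glyma.02G267000 at ZT32, Glyma.08G050600, Glyma.07G227300 and Glyma.13G068600 at ZT24, Glyma.07G132000 at ZT36 and Glyma.12G232700 at ZT40. By their means, ZT24 was the highest time point of 23 members, ZT28 of 9, ZT32 of 14, ZT36 of 4, ZT40 of 8 and ZT44 of 14. Without ZT32 R, ZT28 was the highest of 5 and ZT32 of 18, and the other counts stayed as they were.

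The limit of the range cut through a continuous series. Just inside were Glyma.07G112000 (1.98), Glyma.04G020300 (1.96) and Glyma.10G042000 (1.91), and just outside were Glyma.08G126800 (2.08), Glyma.19G007700 (2.10) and Glyma.09G090100 (2.12). By rank, the last members were Glyma.18G241700 (458 TPM), Glyma.03G031100 (450.2 TPM) and Glyma.03G262300 (450.0 TPM), and the next genes were Glyma.15G238900 (433 TPM), Glyma.10G177200 (433 TPM) and Glyma.04G167900 (422 TPM). Of these 3, Glyma.10G177200 and Glyma.04G167900 had ranges of 3.80 and 6.22.

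The widest member, Glyma.07G112000 (chromosome 7, 11575654 to 11577753, minus strand), also had the smallest spread between replicates, with a residual SD of 0.20 on the log2 scale. It had 1151, 1072 and 882 TPM at ZT24 in L, M and R, 1187, 1355 and 1239 TPM at ZT28, and 1169, 1436 and 838 TPM at ZT32. It had 335, 320 and 303 TPM at ZT36, 417, 334 and 368 TPM at ZT40, and 569, 582 and 598 TPM at ZT44. The time points split into a high early and a low late set with no overlap, and without ZT32 R its range was 2.02, just past the limit. Glyma.04G020300 was likewise lowest at ZT36 (203 ± 42.5 TPM), against 783 ± 57.6 TPM at ZT24 (SD, n = 3 each).

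Glyma.07G132000 (chromosome 7, 15577559 to 15579061, plus strand), picked after its values were seen, ran the other way. It averaged 220 ± 35.8 TPM at ZT24, 331 ± 75.8 TPM at ZT28, 425 ± 47.5 TPM at ZT32, 821 ± 119 TPM at ZT36, 595 ± 58.7 TPM at ZT40 and 510.5 ± 165 TPM at ZT44. Its 3 ZT36 libraries (723, 953 and 787 TPM) were above all others. All 3 genes have ranges close to the limit of 2, so little daily change describes them only in the sense of that limit.

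At the narrow end, Glyma.08G363500 (chromosome 8, 47501084 to 47501704, minus strand) had a range of 0.29 and time-point means of 686 to 833 TPM. Its replicates differed more than its time points, with 360, 1096 and 889 TPM at ZT44 in L, M and R and a residual SD of 0.43. Glyma.18G155400 was next, with a range of 0.48 and a residual SD of 0.51. A narrow range of the means is not the same as a steady level in every library. Over all members the ratio of the highest to the lowest library was 2.09 to 11.2 with a median of 3.91.

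The spread between replicates relative to other genes depended on the pseudocount. The residual SD within time points had a median of 0.38 on the log2 scale over the members, against 0.30 over the tested genes, and without ZT32 R the medians were 0.31 and 0.27. With a pseudocount of 0.1 the order turned, with 0.38 over the members and 0.46 over the tested genes. It was largest in Glyma.15G248600 (chromosome 15, 47406524 to 47407288, plus strand), at 0.90. This gene had 2397, 303 and 2168 TPM at ZT28 in L, M and R and 582, 2315 and 3296 TPM at ZT44, and ZT28 M and ZT44 L were its 2 lowest libraries.

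A pair of libraries held most of the lowest values. ZT32 R was the lowest library of 31 members and the highest of 8, and ZT28 M was the lowest of 15 and the highest of 9. The highest values were spread more widely, with 11 in ZT44 R and 9 in ZT24 L. Against the mean of L and M at ZT32, ZT32 R was lower by more than 1 on the log2 scale in 21 members (29.2%) and in 18.0% of the tested genes, with medians of -0.64 and -0.48, so its low values were not particular to the members. Against the mean of L and R at ZT28, ZT28 M was lower by more than 1 in 16 members (22.2%), while the tested genes had only 1.11% of such cases and a median of 0.16, beside -0.30 over the members. The largest gaps were those of Glyma.15G248600 (-2.91), Glyma.07G227300 (-2.02) and Glyma.12G232200 (-1.99). In another 5 of the 72 members ZT28 M was higher by more than 1, a larger share than the 2.44% of the tested genes. The values were highest in Glyma.18G241700 (1.46), Glyma.16G044900 (1.31) and Glyma.10G042000 (1.29). ZT28 M held 6.44 Gb of aligned sequence and gene TPM at 70.8% of the locus TPM, both well within the other libraries.

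**Figure D5:**
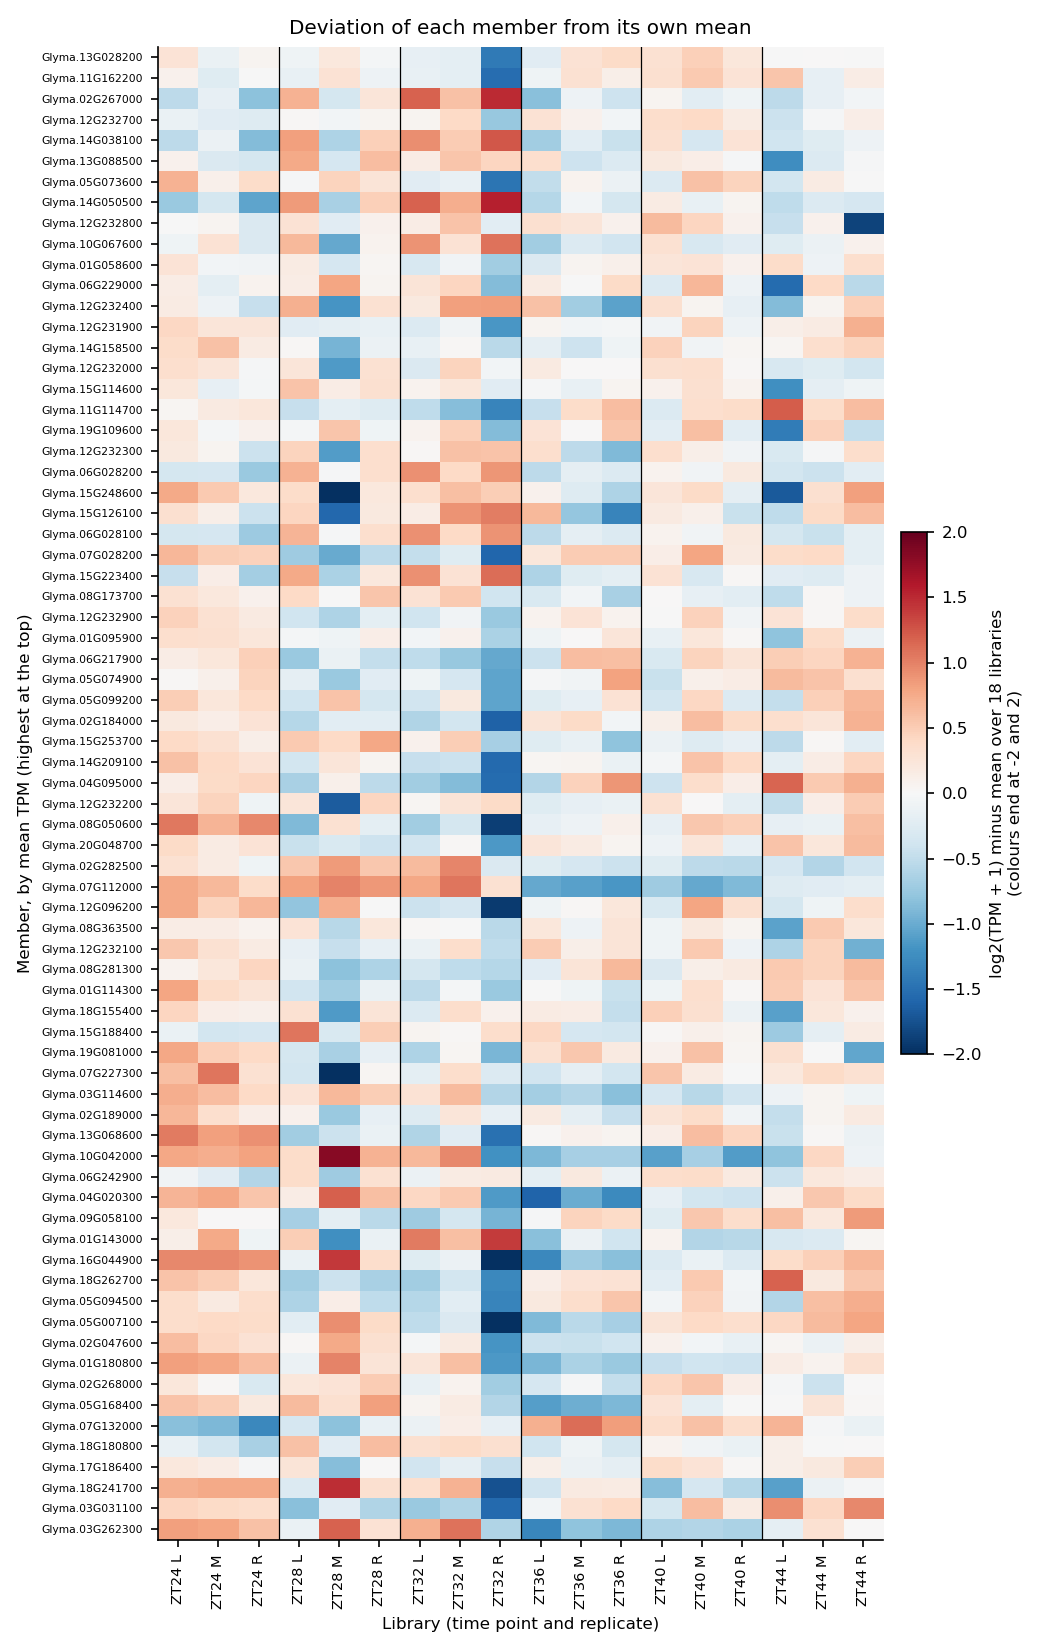
Deviation of log2(TPM + 1) of each member (y axis, in order of mean TPM) from its own mean over the 18 libraries (x axis, in order of time point and replicate), in colours that end at -2 and 2. The columns of ZT32 R and ZT28 M stand out, as the lowest library of 31 and 15 members.

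With the leading gene, Glyma.13G028200, the highest r over the 18 libraries were those of Glyma.11G162200 (0.92, rho 0.75), Glyma.05G073600 (0.81, rho 0.55) and Glyma.14G209100 (0.81, rho 0.49). Without ZT32 R they were 0.71, 0.51 and 0.46, and without the 2 libraries farthest from the median, ZT32 R and ZT40 M, they were 0.63, 0.42 and 0.35. Of the other 71 members, 27 had an r over 0.5 with it and 8 one under -0.5, and without ZT32 R these numbers were 4 and 3. Most of this likeness therefore rested on 1 library. Glyma.02G267000 had an r of -0.64 with Glyma.13G028200, and 25 members had one under -0.5 with Glyma.02G267000, and without ZT32 R this r was -0.32 and the number 16. Both genes are on 1 scale in each library, on which the assembled loci sum to 1000000, and the part of this in r was not tested.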

How the data were processed

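RNA-seq of 18 wild-type Ws82 leaf libraries was analysed, in 6 time points of 3 replicates taken from the labels. Reads were trimmed (Trimmomatic) and aligned by the authors to Gmax_Wm82_a2_v1 (HISAT2 2.2.1), and levels came from StringTie, whose version is not given in the sources used here. Each deposited table gives coverage, FPKM and TPM of annotated genes and of assembled loci. In the deposited tables the TPM column is recorded here as a score, because the assembled loci alone sum to 1000000 and the genes come on top on the same scale. FPKM as deposited by the authors served as an alternative, and the coverage that the authors deposited gave the depth.

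TPM was summed per gene and not normalized further. Read counts are not among the deposited columns, which leaves out count models and counting intervals. Values were analysed as log2(TPM + 1), which understates the change of low genes. The F-test came from limma 3.58.1 in R 4.3.3 (eBayes with trend, all 18 libraries, genes with a mean of at least 1 TPM at any time point). Tables were made with Python 3.11.15, pandas 2.3.3 and numpy 2.4.6. Levels of genes with near-identical copies are uncertain to the extent that reads were shared, which was not measured.

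The members, the lists and the rule for named genes were chosen with earlier results of these data known. Named are the 20 highest members, the 2 widest and 2 narrowest ranges, the genes at each limit, members within 20 kb of each other, the largest and smallest replicate spread, and the 3 members closest to the leading gene. Others were named after their values were seen, as stated beside them or as members of a small count. Groups by gene product and a check of leaf markers were planned but could not be run, because the reference table of another assembly holds none of these identifiers. Alternatives were a pseudocount of 0.1, FPKM, quantile normalization, other limits of rank and range, rescaled TPM, other filters, a replicate block, other denominators, gaps and overlaps, and each library left out in turn. The co-variation without ZT32 R was added, and the set around Glyma.02G267000 defined, after seeing the data.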

Additional observations from a re-analysis of the deposited data

How the results depend on the processing

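The number of members was 38 among the 50 highest genes, 119 among the 200 highest and 31 with a range under 1, and the median span among the 200 highest was 1190 bp. With all assembled loci as the denominator, of which the members are no part, the TPM of the members came to 44.9% over all libraries. By time point it came to 42.4%, 45.9%, 45.2%, 43.1%, 50.4% and 42.5% at ZT24 to ZT44. Without Glyma.13G028200 the members held 48.8% of the gene TPM over all, and 43.99%, 48.4%, 58.4%, 46.8%, 47.9% and 47.2% at ZT24 to ZT44. The order of the time points thus depended on both choices: ZT40 was highest with the loci as denominator, where ZT32 was highest otherwise. The median r over the 2556 pairs of members was 0.14, and 0.26 from deviations, 0.0625 after quantile normalization and 0.0799 without ZT32 R, the last added after seeing the data.

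With each library left out in turn, 36 to 47 of the original 72 members were past the F-test, and their median residual SD was 0.31 to 0.39. With the members picked anew each time there were 68 to 74 of them, with a share of 64.9% to 67.4% over all libraries. By time point the share was 61.5% to 63.3% at ZT24, 62.8% to 68.4% at ZT28, 68.7% to 71.4% at ZT32, 67.3% to 68.3% at ZT36, 68.1% to 68.6% at ZT40 and 65.3% to 65.6% at ZT44. The other settings for the F-test gave 31 members without a filter, where 36.9% of all genes passed, to 47 with eBayes without trend, where 73.6% passed, beside 43 and 76.3%. With a pseudocount of 0.1 the median residual SD was 0.38 over the members and 0.46 over the tested genes, the reverse of the order with a pseudocount of 1. The replicate block gave 43 members, as without it, and a median residual SD of 0.38. Libraries of the same letter did not deviate together, with r of -0.37 to 0.32 over 45 pairs (median -0.01), and 8 of 18 libraries correlated best with one of their own letter, so the letters were not used as pairs. The files give no counts, so precision at a given depth could not be computed.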
